A study of Mus musculus with 13 samples.

Results

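The collagen chain genes of the mouse were described across 13 expression arrays of induced cardiomyocyte-like cells (iCMs), hearts and fibroblasts. They were taken as all genes whose symbol in the array's probe-to-gene table is Col, a type number, the letter a and a chain number. This gave 35 genes, read by 36 probes, of 16390 genes measured. Col15a1 had 2 probes, and the one with the higher mean in the authors' value table stands for it. By the structure of the collagen they form, 11 members were fibrillar, 9 were FACITs (collagens with interrupted helices that sit on fibrils), 4 belonged to the basement membrane network, 4 were transmembrane and 3 formed beaded filaments. The short-chain networks had 2 members, and anchoring fibrils and multiplexins had 1 each. A further 3 collagens stand in the table under older symbols and are not members: Col26a1 (log2 levels of 6.06 to 6.87 over the 13 arrays), Col6a4 (5.70 to 6.02) and Col6a6 (5.68 to 5.77).

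Collagens are secreted proteins in which α chains wind into a helix, and the chain genes a cell uses decide which helix it can build. Type I collagen, made from the chains of Col1a1 and Col1a2, and type III, made from Col3a1, are the main fibrils of the heart's interstitium and are made chiefly by fibroblasts. Type IV and type XV belong to the basement membrane that surrounds cardiomyocytes and vessels. The chains are hydroxylated and folded in the endoplasmic reticulum, trimmed outside the cell and cross-linked by lysyl oxidases. In reprogramming from fibroblasts, collagen genes are commonly followed as part of the fibroblast programme.

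GMT iCMs, on 6 of the 13 arrays, were made with factors known as Gata4, Mef2c and Tbx5 and were sorted as cells positive for αMHC-GFP, a reporter of the cardiac α-myosin heavy chain promoter. They came from 3 media, FFV (FGF2, FGF10 and VEGF without serum), SF (serum-free) and FBS (with serum), at 4 and 2 weeks after transduction. FFV and FBS thus differ in both growth factors and serum, which their comparison cannot tell apart. A further 2 arrays, 1 for FFV and 1 for FBS, held GMTMM iCMs, for which Mesp1 and Myocd were added to GMT in tail-tip fibroblasts (TTFs). The array of MT iCMs stands for Mef2c with Tbx5 in FFV. Hearts of postnatal day 1 (P1) and embryonic day 12 (E12), TTFs and mouse embryonic fibroblasts (MEFs) had 1 array each. The labels do not name the cells that the GMT and MT iCMs were made from, the sort and culture time of the GMTMM and MT iCMs, or the strain. Each group was 1 array, so no group had replicates, and p-values below measure scatter between culture contexts and not between replicate cultures.

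Arrays fell into 3 series, 1 with the GMT iCMs and the E12 heart, 1 with MEFs and the P1 heart, and 1 with TTFs, GMTMM and MT iCMs. The mean signal of blank spots was 13.1 to 15.4 in the first and second series and 39.9 to 41.1 in the third, and 78.4% to 91.5% of probes lay above background, lowest in the GMTMM FBS array. Each level below is a quantile-normalised log2 intensity, on which the median of all genes was 6.46 and the lowest value of any gene was 5.65. An offset added to the signal narrows differences of dim genes, and levels of different genes cannot be ranked because each probe binds with its own strength. The 8 cardiomyocyte markers, as the log2 of their summed level, stood at 16.05 to 16.64 in GMT iCMs, 13.60 in MT iCMs, 11.17 and 9.83 in GMTMM iCMs in FFV and FBS, 16.84 and 16.59 in the P1 and E12 hearts, and 8.89 and 9.06 in TTFs and MEFs. The GMTMM arrays therefore carry the label of cardiomyocyte-like cells with a low level of these markers. Above background were 7 of 8 markers in GMTMM FFV and 5 of 8 in GMTMM FBS, against 4 of 8 in TTFs and 6 of 8 in MEFs.

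Nearly all members gave a signal, but their spread over the arrays was unequal. Above background in every array were 31 of the 35 genes. The exceptions were Col9a2, above background in 5 arrays, Col19a1 in 8, Col23a1 in 11 and Col25a1 in 2. The distance between the lowest and highest array was at least 4-fold for 16 members, as it was for 12.6% of all genes, and under 2-fold for 10 members. The highest array was an iCM array for 18 members, a fibroblast array for 12 and a heart for 5. Among these, MEFs were highest for 7 members, GMTMM iCMs in FBS for 6, TTFs and GMTMM iCMs in FFV for 5 each, and MT iCMs and the E12 heart for 4 each. Most of the 13 arrays are iCM arrays, and the same tally was not made over all genes. It also includes the 10 members with a range under 2-fold, all of them dim. Examples are Col25a1 (range 0.06) and Col19a1 (0.11), both highest in MT iCMs, where Col25a1 was not above background.

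**Figure D1:**
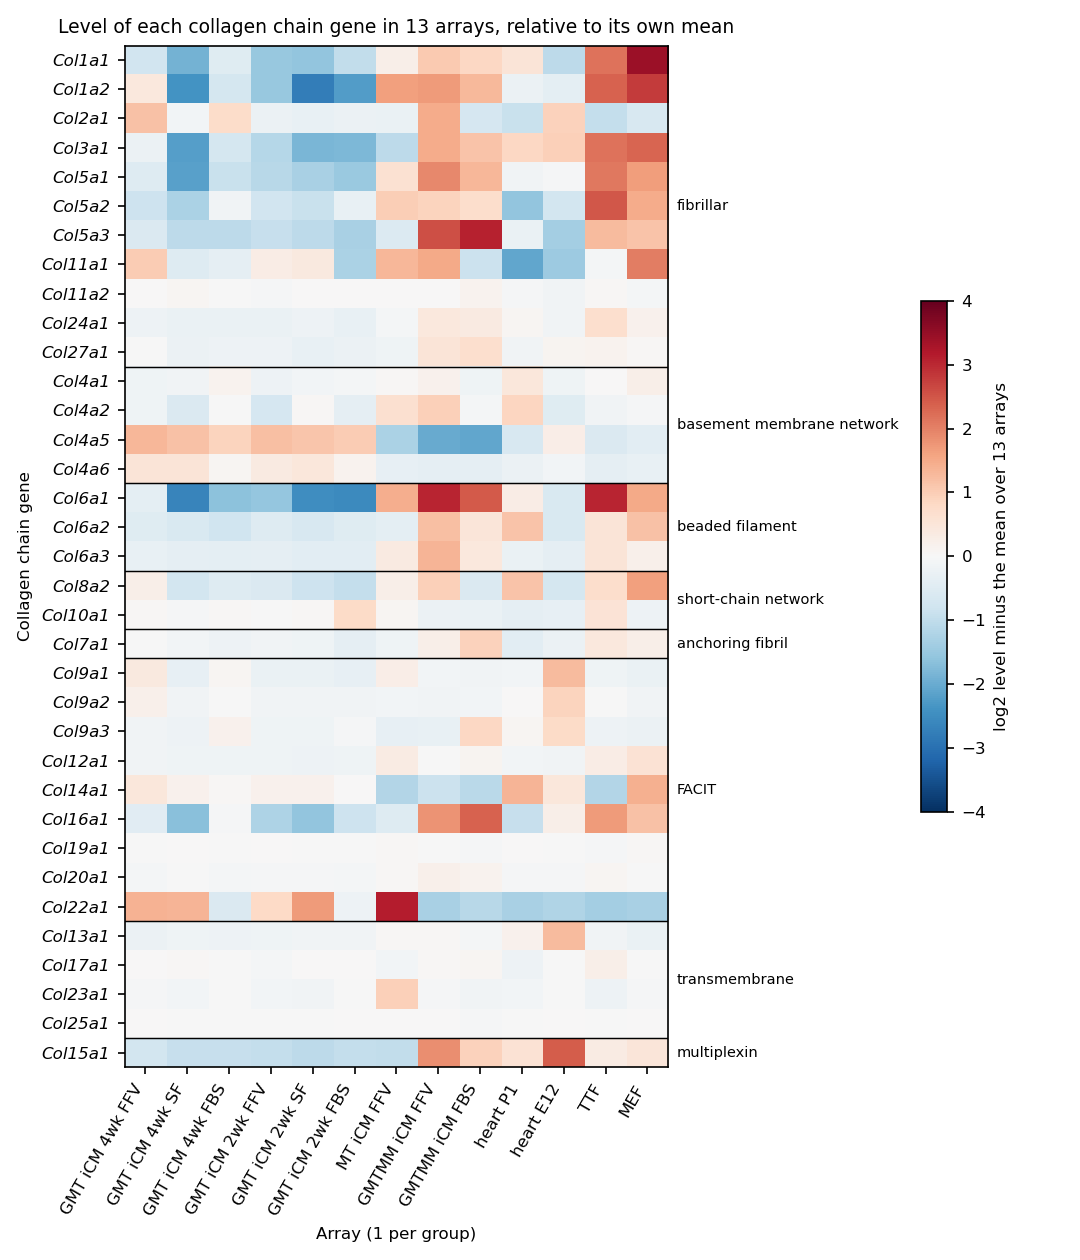
Heat map of the log2 level of each of the 35 collagen chain genes (rows, grouped by class) in 13 arrays (columns, 1 per group), relative to the gene's own mean over the 13 arrays. The fibrillar chains Col1a1 and Col3a1 lie below their mean in all GMT iCM columns, as does Col1a2 except in FFV at 4 weeks (12.37 against a mean of 11.96), and all 3 are high in TTFs and MEFs, Col4a5 runs the other way, and Col22a1 peaks in MT iCMs at 10.26.

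The first question is how collagen chain genes differ between GMT iCMs and MEFs. Fibrillar chains were lower in GMT iCMs, and 7 of 11 passed 2-fold in each of the 6 arrays, with a median log2 difference of -2.14. Over all 35 members, 12 were at least 2-fold lower in all 6 arrays, where 3.01% of all genes were, and 1 was at least 2-fold higher, where 2.02% of all genes were. The median difference of the members was -0.34, against 0.01 for all genes. With single arrays there is no test, and the MEF array enters every difference. The cells of these bulk samples are mixed, so fewer cells of a type and less RNA per cell cannot be told apart.

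Both chains of type I collagen showed the widest gaps. Col1a1 had levels of 7.44 to 8.85 (median 8.09) in the 6 GMT iCM arrays and 12.75 in MEFs, a mean difference of 24.7-fold. Its partner Col1a2 ranged from 9.20 to 12.37 (median 10.09) in GMT iCMs, against 14.75 in MEFs, 19.9-fold lower on average. The lowest of these arrays was SF at 2 weeks and the highest FFV at 4 weeks. Col3a1, the chain of type III collagen, lay at 9.78 to 11.77 (median 10.52) in GMT iCMs and at 14.32 in MEFs, 12.6-fold lower. For all 3 genes every GMT iCM array stood below the MEF array. In Col1a2 the highest GMT iCM array was 2.38 below MEFs, a gap narrower than the spread among the 6.

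The minor fibrillar collagens, which join type I and type II fibrils and set their width, were lower as well. Col5a1 read 8.65 to 10.33 (median 9.62) in GMT iCMs, against 12.51 in MEFs, 7.58-fold lower. Col5a2 read 10.12 to 11.24 (median 10.58), against 12.88, 4.57-fold lower. Levels of Col5a3 were 5.87 to 6.59 (median 6.13) in GMT iCMs and 8.32 in MEFs, 4.40-fold lower, and this gene is dim in the iCMs. Col11a1, a chain of cartilage type XI collagen that fibroblasts also make, had 6.77 to 9.04 (median 7.99) in GMT iCMs and 10.05 in MEFs, 4.29-fold lower, with a range of 2.27 among the 6 arrays. The remaining fibrillar members did not pass the 2-fold rule. Col2a1, the main chain of cartilage fibrils, had differences of 0.37 to 1.82 from MEFs, and Col11a2, Col24a1 and Col27a1 had mean differences of 0.09, -0.43 and -0.25.

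Of the chains that form beaded filaments around cells, Col6a1 and Col6a2 were lower in GMT iCMs. Col6a1 had 6.83 to 9.09 (median 7.40) in GMT iCMs, against 10.99 in MEFs, 10.5-fold lower. Col6a2 had 6.65 to 6.99 (median 6.89), against 8.62, 3.36-fold lower, and Col6a3 had a mean difference of -0.57. The short-chain Col8a2, a component of the hexagonal network under corneal and vascular cells, read 7.16 to 8.37 (median 7.46) in GMT iCMs and 9.76 in MEFs, 4.6-fold lower. The fibril-associated Col16a1 read 6.72 to 8.32 (median 7.35), against 9.57, 4.47-fold lower. Col15a1, the multiplexin, read 6.12 to 6.40 (median 6.21) in GMT iCMs and 7.62 in MEFs, 2.62-fold lower, and its second probe read 5.83 to 5.91 in GMT iCMs and 6.41 in MEFs. With the local surround of each spot subtracted, the difference of Col16a1 turned to 0.09, and the calls of Col5a3 (-0.61), Col15a1 (-1.10) and Col4a5 (1.24) ended. That of Col15a1 also ended with the mean of its probes (-0.97), and that of Col11a1 with the authors' value table (-2.27). The log2 signals of spots and of their local surround correlated at 0.88 to 0.96 over the arrays. Subtracting the surround may therefore also remove spot signal, and how far it did was not tested.

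Col4a5, with other type IV chains, builds specialised basement membranes and is mutated in Alport syndrome. It was the member called higher in GMT iCMs in the main setting. Its levels were 9.62 to 10.05 (median 9.88) in GMT iCMs and 8.31 in MEFs, 2.92-fold higher, with single arrays 1.32 to 1.75 above MEFs. Col4a6, the gene beside it on the X chromosome, had 6.26 to 6.69 in GMT iCMs and 5.87 in MEFs, above the MEF array in all 6 but short of 2-fold, with a mean difference of 0.66. Col4a2, a chain of the type IV collagen found in most basement membranes, had 9.70 to 10.42 (median 10.11) in GMT iCMs and 10.32 in MEFs, so the groups overlap. Its partner Col4a1 had 6.13 to 6.47 (median 6.20), against 6.57. The FACIT Col22a1, known from muscle-tendon junctions, had 6.55 to 8.84 (median 8.2) in GMT iCMs and 5.82 in MEFs. All 6 arrays were higher than MEFs, 5 of them by at least 2-fold, with FBS at 4 weeks the exception. Col14a1, a FACIT of tendon and skin, read 7.64 to 8.09 (median 7.79) in GMT iCMs and 9.06 in MEFs, at least 2-fold lower in 5 of 6 arrays. It passed with the offset of 16 (-1.41) and with the floor (-1.34). Upwards, Col22a1 passed with the offset of 16 (3.09), the floor (4.92) and the authors' value table (4.56), and Col4a6 with the latter settings (2.65 and 2.47). Downwards, Col12a1 passed with the offset of 16 (-1.14), the floor (-1.56) and the value table (-1.53). Col6a3 passed downwards with the floor (-1.93) and the value table (-1.89), and Col24a1 with the floor (-1.21).

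**Figure D2:**
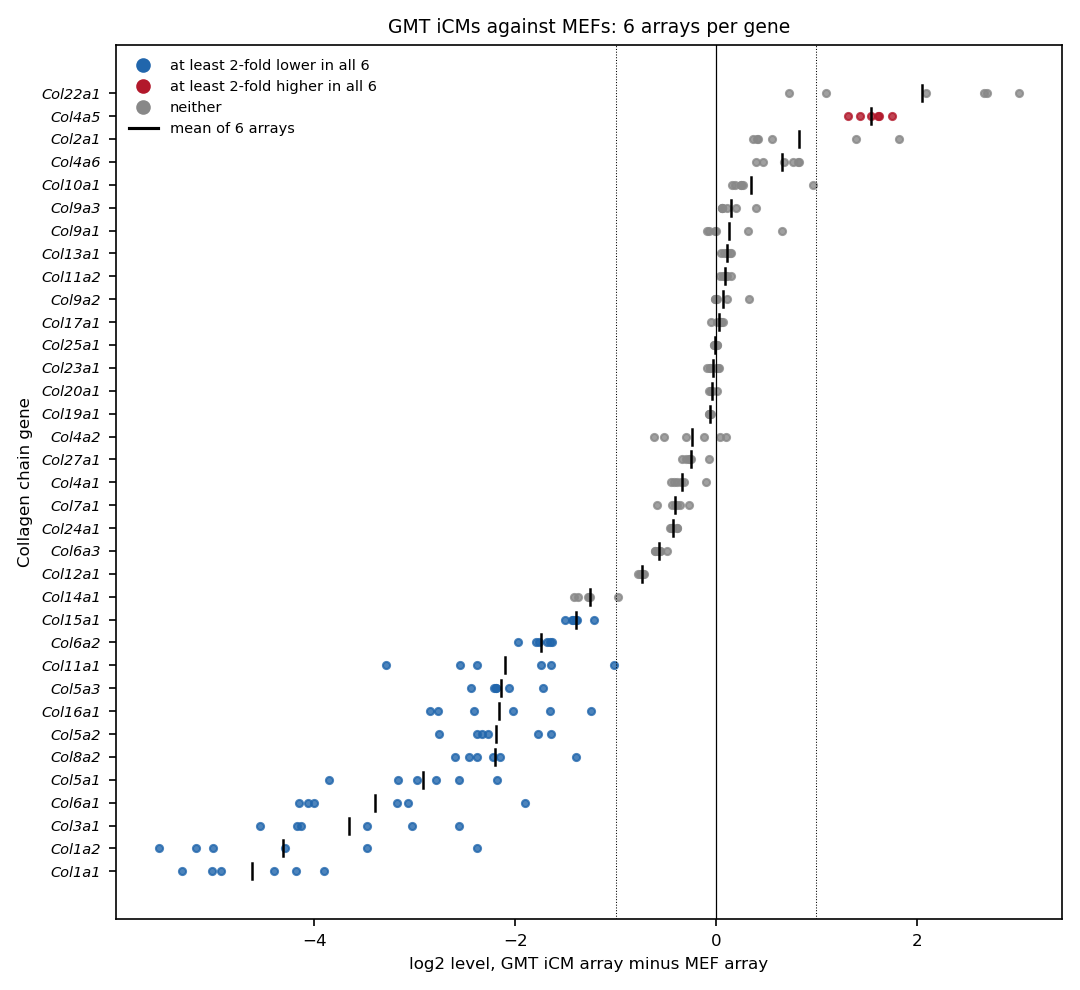
Log2 level of each of the 35 collagen chain genes in the 6 GMT iCM arrays minus the MEF array (points), with the mean as a bar and dotted lines at 2-fold. The 12 genes in blue lie at least 2-fold below MEFs in all 6 arrays, Col1a1 farthest with a mean of -4.62, and Col4a5 in red lies at least 2-fold above in all 6.

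Promoter sequences are shown for the chains whose values stand farthest apart from MEFs in each direction and are in the table used, and for neighbouring pairs of type IV genes. RefSeq promoters (build GRCm38.p6, 250 bases before to 50 after the start site) were matched for 28 of the 35 members. The windows are chr6:4505368-4505667 on the plus strand for Col1a2, chr1:45311288-45311587 plus for Col3a1, chrX:141475169-141475468 plus for Col4a5, chrX:141474027-141474326 minus for Col4a6 and chr8:11312555-11312854 plus for Col4a2. Each is written 5′ to 3′ with capitals marking CCAAT or TATAAA on either strand.
Col1a2: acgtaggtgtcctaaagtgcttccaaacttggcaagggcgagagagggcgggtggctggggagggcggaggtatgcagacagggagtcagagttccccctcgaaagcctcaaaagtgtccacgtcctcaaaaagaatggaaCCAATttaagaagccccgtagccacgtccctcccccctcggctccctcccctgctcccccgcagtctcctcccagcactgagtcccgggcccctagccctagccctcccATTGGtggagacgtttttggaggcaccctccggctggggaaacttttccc
Col3a1: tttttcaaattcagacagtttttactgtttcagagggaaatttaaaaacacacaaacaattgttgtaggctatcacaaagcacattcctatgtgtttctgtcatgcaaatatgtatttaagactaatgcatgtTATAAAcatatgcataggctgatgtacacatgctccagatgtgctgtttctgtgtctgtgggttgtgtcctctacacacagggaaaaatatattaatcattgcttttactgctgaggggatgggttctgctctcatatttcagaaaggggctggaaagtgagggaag
Col4a5: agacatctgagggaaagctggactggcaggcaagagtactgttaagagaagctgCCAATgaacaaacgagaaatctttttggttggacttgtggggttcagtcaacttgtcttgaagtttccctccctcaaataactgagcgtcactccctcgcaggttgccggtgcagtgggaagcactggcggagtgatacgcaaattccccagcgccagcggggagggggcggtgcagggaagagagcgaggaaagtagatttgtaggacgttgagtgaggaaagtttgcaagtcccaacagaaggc
Col4a6: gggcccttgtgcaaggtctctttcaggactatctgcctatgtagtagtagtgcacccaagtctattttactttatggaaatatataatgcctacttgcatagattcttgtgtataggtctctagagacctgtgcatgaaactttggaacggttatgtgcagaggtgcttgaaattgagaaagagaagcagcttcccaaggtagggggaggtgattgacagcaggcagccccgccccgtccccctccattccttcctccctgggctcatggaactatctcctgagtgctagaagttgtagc
Col4a2: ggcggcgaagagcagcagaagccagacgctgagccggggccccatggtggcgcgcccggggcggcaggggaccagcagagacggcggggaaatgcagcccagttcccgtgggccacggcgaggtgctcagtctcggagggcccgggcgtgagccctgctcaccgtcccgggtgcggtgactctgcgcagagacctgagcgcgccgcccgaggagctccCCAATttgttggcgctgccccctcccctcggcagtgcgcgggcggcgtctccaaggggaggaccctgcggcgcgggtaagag
Col1a2 holds 2 CCAAT boxes, Col4a5 and Col4a2 hold 1 each, Col3a1 holds 1 TATAAA, and the Col4a6 window holds neither.

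The start sites of Col4a5 and Col4a6 lie 1343 bases apart on opposite strands, and both genes were above the MEF level in all 6 GMT iCM arrays. Those of Col4a2 and Col4a1 lie 21 bases apart, also on opposite strands, so that their windows share 78 bases. Exact motifs were counted on both strands, per gene for the 28 matched members and per promoter for all 32851 promoters in the table. A member with several windows, such as Col6a2, counted if any of them held the motif. CCAAT was present in 11 members (39.3%), against 37.4% of all promoters. GGGCGG, the GC box, was present in 17 (60.7%), against 35.7%, and TATAAA in 5 (17.9%), against 13.6%. For the transduced factors, AGATAA, bound by the Gata family, was present in 2 members (7.14%) and 11.2% of all promoters. AGGTGT, bound by T-box factors, was present in 2 (7.14%) and 13.7%, and the MEF2 motif in 1 (3.57%) and 3.19%. The MEF2 motif in Col13a1 overlaps its TATAAA. These are matches of letters in a short window and not binding sites.

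Genes that modify, fold and cross-link collagen differed less evenly from MEFs than the fibrillar chains. Of 29 measured, 4 were at least 2-fold lower in all 6 GMT iCM arrays and 0 were higher, with a median of -0.28. The lysyl oxidases Loxl1 (-3.38) and Lox (-3.22), which cross-link fibrils, and the prolyl 4-hydroxylase subunit P4ha2 (-1.81) were among the 4, whereas the prolyl 3-hydroxylase P3h2 had a mean difference of 2.25 and single arrays from 0.92 to 3.22. Among 14 receptors and uptake genes, 4 were lower and 0 higher. These were the gelatinase Mmp2 (-3.53), its activator Mmp14 (-2.86), the collagen receptor kinase Ddr2 (-1.83) and the uptake receptor Mrc2 (-1.14).

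Among markers of other cells, those of fibroblasts and macrophages were mostly lower in GMT iCMs as well. Of 14 fibroblast markers other than collagens, 11 were at least 2-fold lower in GMT iCMs, with the log2 of their summed level at 14.48 to 15.27 in GMT iCMs and 15.67 in MEFs. The 8 macrophage markers stood at 9.21 to 11.11 in GMT iCMs and 13.55 in MEFs, with 6 of 8 at least 2-fold lower and 7 or 8 above background in each array. Endothelial markers stood at 9.97 to 10.97, against 9.91, with 0 of 8 past 2-fold in all 6 arrays. Among them Flt1 read 8.73 to 10.49 in GMT iCMs and 8.17 in MEFs, and passed 2-fold in some arrays only. The part of these cells in the collagen values was not tested. Array series, sort and cell type cannot be told apart between these groups.

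GMT iCMs were next set against the hearts. Against the E12 heart, which shares their array series, 3 members were lower in all 6 arrays, where 3.76% of all genes were, and 0 were higher, where 3.26% were. The median difference of the members was -0.01, as against 0.01 for all genes. Col15a1, a basement membrane collagen of vessels and muscle, had 6.12 to 6.40 (median 6.21) in GMT iCMs and 9.56 in the E12 heart, 10.1-fold lower. Col3a1 had 9.78 to 11.77 in GMT iCMs and 12.95 in the E12 heart, 4.87-fold lower. Col13a1, a transmembrane collagen of cell adhesions, had 6.18 to 6.28 in GMT iCMs and 7.66 in the E12 heart, 2.69-fold lower. The type I chains did not pass the rule. Col1a1 differed by -0.86 to 0.55, and Col1a2 by -2.38 to 0.80 with a mean of -1.14, only FFV at 4 weeks lying above the heart. The 3 chains of cartilage type IX, Col9a1, Col9a2 and Col9a3, had mean differences of -1.39, -0.95 and -0.86 without passing the rule. The call of Col3a1 ended with median scaling (-1.74), the floor on blank-subtracted signal (-1.88) and the authors' value table (-1.97), and those of Col3a1 (-0.41) and Col13a1 (-0.64) ended with the surround subtracted. Col9a1 and Col9a2 passed with an offset of 16 (-1.91 and -1.78), the floor (-2.18 and -2.98) and the value table (-2.26 and -2.76). Col22a1 passed upwards under the same settings (2.87, 4.23 and 4.13), and Col4a5 with median scaling (1.27). The second probe of Col15a1 read 5.83 to 5.91 in GMT iCMs and 6.0 in the E12 heart, so the large gap is that of 1 probe.

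Against the P1 heart, 3 members were lower in all 6 arrays, where 4.21% of all genes were, and 1 was higher, where 3.03% were. Col3a1 stood at 12.83 in the P1 heart, and GMT iCMs were 4.46-fold lower on average. Col6a2, with 6.65 to 6.99 in GMT iCMs and 8.61 in the P1 heart, was 3.35-fold lower. Col15a1, with 6.12 to 6.40 in GMT iCMs and 7.72 in the P1 heart, was 2.82-fold lower, and its second probe read 7.70 in the P1 heart. Col4a5, with 9.62 to 10.05 in GMT iCMs and 8.09 in the P1 heart, was 3.39-fold higher. Col11a1 and Col22a1 had mean differences of 2.01 and 2.05 and passed 2-fold in some arrays only. The split of 1 higher and 3 lower became 1 and 1 with median scaling, 5 and 2 with a floor on blank-subtracted signal or with the authors' value table, and 1 and 6 without the FFV array of 4 weeks. The call of Col3a1 ended under the first 3 of these settings (-1.70, -1.91 and -1.98). With the surround subtracted the calls of Col3a1 (-0.05), Col6a2 (-1.08) and Col4a5 (0.29) ended.

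Some collagen processing genes were higher in GMT iCMs than in the hearts. Against the E12 heart 5 of 29 passed 2-fold upwards in every array (3.26% of all genes) and 0 downwards, with a median of 0.47 and 6 means below 0. Against the P1 heart 8 were higher (3.03% of all genes) and 0 lower, with a median of 0.55 and 9 means below 0. The comparisons share the 6 iCM arrays. Pcolce, an enhancer of procollagen trimming, was higher by 3.12 than in the E12 heart and by 3.26 than in the P1 heart. The hydroxylase subunit P4ha1 was higher by 2.68 than in the P1 heart. Endothelial markers were at least 2-fold lower in GMT iCMs for 6 of 8 genes against either heart, with summed levels of 9.97 to 10.97 in GMT iCMs, 13.11 in the P1 heart and 12.33 in the E12 heart. Fibroblast markers were lower for 4 of 14 genes against the E12 heart and for 7 of 14 against the P1 heart, and higher for 1 against either. Their part in the collagen values was not tested. Tissue and sorted cultured cells also differ in composition, which cannot be told apart from a change within cells.

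Within the 8 arrays of GMT and GMTMM iCMs, the effect of medium was tested with limma in 34 members, with the context (GMTMM, or GMT at either time) as a covariate and adjustment over 15245 genes. FFV against FBS called 0 members, where 0.0394% of all genes were called. At an unadjusted p under 0.05 it gave 4 members, where 10.7% of all genes were, 3 higher and 1 lower. Of these Col11a1 had the largest estimate, a log2 difference of 1.76 ± 0.39 (SE, adjusted p = 0.240), and was higher in FFV in all 3 contexts. Its levels were 9.04 in FFV and 7.67 in FBS at 4 weeks, 8.31 in FFV and 6.77 in FBS at 2 weeks, and 9.54 in FFV and 7.17 in FBS for GMTMM iCMs. Col6a1 (0.95 ± 0.27, adjusted p = 0.349) and Col8a2 (0.88 ± 0.24, adjusted p = 0.333) were higher in FFV in all 3 contexts too, and Col9a3 had an estimate of -0.51 ± 0.19 (adjusted p = 0.432). The median over the members was 0.09, against -0.00 over all genes.

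SF against FBS called 0 members by limma, where 0.0459% of all genes were called, and 6 at an unadjusted p under 0.05, where 13% of all genes were. The largest estimate was that of Col22a1, 1.65 ± 0.45 (adjusted p = 0.250), followed by Col1a2 with -1.21 ± 0.36 (adjusted p = 0.286) and Col16a1 with -1.20 ± 0.23 (adjusted p = 0.155). FFV against SF called 0 members, where 0.0% of all genes were called. At an unadjusted p under 0.05 it gave 7 members, where 5.03% of all genes were, all of them higher in FFV. Col1a2 had the largest of these differences, 1.94 ± 0.36 (adjusted p = 0.866), before Col6a1 with 1.51 ± 0.32 and Col3a1 with 1.30 ± 0.34 (both adjusted p = 0.872). No difference of a collagen chain gene between media therefore passed the threshold in this fit.

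In the 6 GMT arrays alone, with 2 residual degrees of freedom, limma called 2 members in FFV against FBS, where 4.14% of all genes were called, and 6 members in SF against FBS, where 11% were. Col22a1 rose in both, by 1.48 ± 0.25 in FFV (adjusted p = 0.031) and by 1.93 ± 0.25 in SF (adjusted p = 0.00978). It read 8.52 in FFV, 8.49 in SF and 6.55 in FBS at 4 weeks, and 7.91 in FFV, 8.84 in SF and 6.92 in FBS at 2 weeks, so both FBS arrays lay below the other 4. In GMTMM iCMs it read 5.84 in FFV and 6.01 in FBS, near the lowest value of any gene. Col5a3 rose in FFV by 0.43 ± 0.08 (adjusted p = 0.0455), and Col4a6 rose in SF by 0.36 ± 0.08 (adjusted p = 0.0421). Col16a1 fell in SF by 1.18 on the log2 scale (adjusted p = 0.0264), Col1a1 by 1.02 (adjusted p = 0.049), Col5a2 by 0.86 (adjusted p = 0.0243) and the dim Col23a1 by 0.10 (adjusted p = 0.0438). Col5a2 read 10.55 in FFV, 10.12 in SF and 11.24 in FBS at 4 weeks, and 10.61 in FFV, 10.50 in SF and 11.11 in FBS at 2 weeks. For this chain the FBS array was the highest at both times.

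More members passed 2-fold between single arrays of different media at 4 weeks than at 2 weeks. FFV stood at least 2-fold above FBS for 4 members at 4 weeks (0.697% of all genes) and for 1 at 2 weeks (0.659%), Col11a1 in both, and below it for 0 members at either time (1.12% of all genes at 4 weeks and 0.537% at 2 weeks). SF stood below FBS for 6 members at 4 weeks (2.05% of all genes), 5 of them fibrillar, and for 0 at 2 weeks (0.921%). It stood above FBS for Col22a1 alone at 4 weeks (1.05%) and for Col22a1 and Col11a1 at 2 weeks (0.833%). FFV stood at least 2-fold above SF for 8 members at 4 weeks, where 0.794% of all genes did, and 6 of the 8 were fibrillar. At 2 weeks FFV stood above SF for 1 member, Col1a2, where 0.306% of all genes did. It stood below SF for 0 members at 4 weeks (0.157%) and 0 at 2 weeks (0.0408%). Col1a2 had 12.37 in FFV, 9.57 in SF and 11.27 in FBS at 4 weeks, and 10.45 in FFV, 9.20 in SF and 9.74 in FBS at 2 weeks. Col3a1 had 11.77 in FFV, 9.78 in SF and 11.29 in FBS at 4 weeks, and 10.85 in FFV, 10.15 in SF and 10.19 in FBS at 2 weeks. Col6a1 had 9.09 in FFV, 6.83 in SF and 7.82 in FBS at 4 weeks, and 7.93 in FFV, 6.99 in SF and 6.93 in FBS at 2 weeks. In each of these 3 genes FFV was the highest medium at both times. Col5a1 had 10.33 in FFV, 8.65 in SF and 9.95 in FBS at 4 weeks, and 9.71 in FFV, 9.53 in SF and 9.34 in FBS at 2 weeks, with SF lowest at 4 weeks only.

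Chains that join in the same protein did not always keep step. In FFV against FBS the difference of Col1a2 was 1.10 at 4 weeks and 0.71 at 2 weeks, whereas that of Col1a1 was -0.28 at 4 weeks and -0.53 at 2 weeks. Col1a1 had 8.58 in FFV, 7.44 in SF and 8.85 in FBS at 4 weeks, and 7.82 in FFV, 7.74 in SF and 8.35 in FBS at 2 weeks, so FBS was its highest medium. Likewise Col5a1 differed by 0.38 at 4 weeks and 0.37 at 2 weeks, and Col5a2 by -0.68 and -0.50. Col6a1 differed by 1.27 at 4 weeks and 1.0 at 2 weeks, and Col6a2 by 0.34 and -0.03. Col4a5 and Col4a6 stayed close, with 0.43 each at 4 weeks and 0.19 and 0.21 at 2 weeks. In SF against FBS at 4 weeks the type I chains were both lower, Col1a2 by -1.70 and Col1a1 by -1.42. These pairs rest on 1 array a side, and the difference between the chains was not tested.

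**Figure D3:**
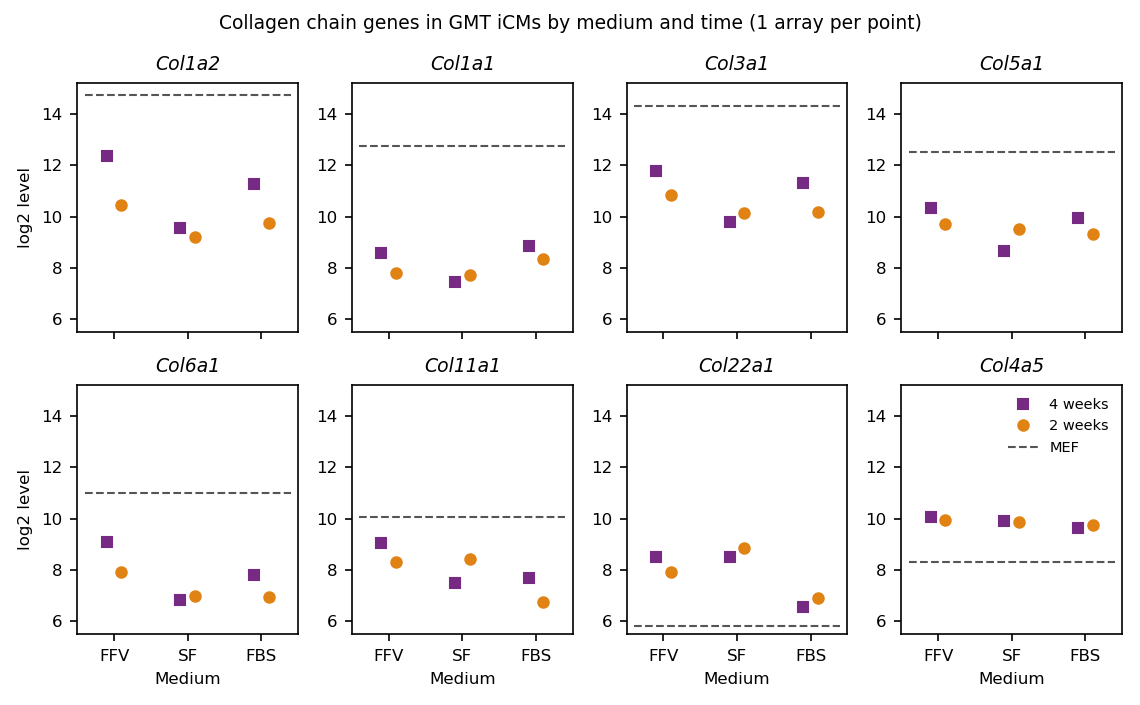
Log2 level of 8 collagen chain genes in GMT iCMs by medium (x axis) at 4 weeks (squares) and 2 weeks (circles), 1 array per point, with the MEF level as a dashed line. Col1a2 in FFV at 4 weeks (12.37) is the highest GMT iCM point of its panel, and Col4a5 lies above the MEF line of 8.31 in all 6 arrays.

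Time was tested with limma in the 6 GMT arrays with medium as a covariate. At 4 weeks against 2 weeks, 0 members were called, where 0.0% of all genes were. At an unadjusted p under 0.05 there were 10 members, where 8.79% of 15035 genes were, and all 10 were higher at 4 weeks. Col1a2 had a difference of 1.28 ± 0.28 (adjusted p = 0.550) and Col2a1 one of 0.86 ± 0.22 (adjusted p = 0.550). Between single arrays, 3 members were at least 2-fold higher at 4 weeks in FFV (0.289% of all genes), 0 in SF (0.0338%) and 2 in FBS (0.454%), and 0 were lower in FFV (0.131%), SF (0.027%) or FBS (0.04%). In Col1a2 the difference was 1.92 in FFV, 0.37 in SF and 1.53 in FBS. Col2a1 read 8.33 in FFV, 7.07 in SF and 7.90 in FBS at 4 weeks, and 6.92 in FFV, 6.88 in SF and 6.93 in FBS at 2 weeks, so FFV and FBS were higher at the later time and SF was close. Without the 2 SF arrays, with 1 residual degree of freedom, limma called Col1a2 (1.73, adjusted p = 0.0487), where 0.0469% of all genes were called. The difference was above 0 for 29 of 34 members, with a median of 0.08, and for 7176 of 15035 genes.

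In the fit of 8 arrays, processing genes had 7 of 29 and receptor genes 0 of 13 at an unadjusted p under 0.05 in FFV against FBS, and 0 called in either list. Macrophage markers were lower in FFV at 7 of 8 genes by that count, with summed levels of 9.21 in FFV, 9.25 in SF and 11.11 in FBS at 4 weeks, 9.29 in FFV, 9.31 in SF and 9.71 in FBS at 2 weeks, and 9.28 in FFV and 12.37 in FBS for GMTMM iCMs. Fibroblast markers without collagens had summed levels of 14.48 in FFV, 14.86 in SF and 14.60 in FBS at 4 weeks. At 2 weeks these were 15.16 in FFV, 15.27 in SF and 14.78 in FBS. The sums are weighted to Vim, the brightest of the list (13.98 in FFV, 14.65 in SF and 13.95 in FBS at 4 weeks). The mean log2 level of the list was lowest in SF, with 8.38 in FFV, 7.64 in SF and 8.46 in FBS at 4 weeks. It was 8.25 in FFV, 7.91 in SF and 8.22 in FBS at 2 weeks. By limma's estimates, 12 of 13 were lower in SF than in FBS. Against SF, 8 of 13 were higher in FFV and 1 lower at an unadjusted p under 0.05. The fibroblast surface marker Thy1 was called by limma, lower than in FBS by -1.96 in FFV (adjusted p = 0.0418) and by -3.19 in SF (adjusted p = 0.0284). Cardiomyocyte markers were higher in FFV than in FBS for 7 of 8 genes, and at 4 weeks than at 2 weeks for 5 of 8, at an unadjusted p under 0.05 with 0 called. Their part in the collagen values was not tested.

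GMTMM iCMs were compared with TTFs, the cells they were made from. Of the members 3 were lower and 1 higher by at least 2-fold in both arrays, where 0.914% and 1.04% of all genes were, and the median difference was 0.02. Col5a2 read 12.28 and 12.09 in GMTMM iCMs in FFV and FBS, against 13.88 in TTFs, 3.24-fold lower. Col4a5 read 6.71 and 6.65, against 8.16, 2.80-fold lower, so the chain that was higher in GMT iCMs than in MEFs stood below the fibroblasts here. Col1a1 read 10.38 and 10.15, against 11.51, 2.36-fold lower. Col5a3 read 9.74 and 10.25, against 8.42, 2.98-fold higher. Other major chains stayed within 2-fold or nearly so, with Col1a2 at 13.68 and 13.27, against 14.32, and Col3a1 at 13.48 and 13.14, against 14.18. With the surround subtracted the calls of Col5a2 (-0.53), Col4a5 (-0.66) and Col5a3 (1.08) ended, and with the floor that of Col1a1 (-1.11). With a single array, 8 members passed 2-fold for FFV and 8 for FBS. The share of all genes under this looser rule was not counted, so these counts cannot be set against it. Fibroblast markers were at least 2-fold lower in both arrays for 3 of 14 genes and cardiomyocyte markers higher for 1 of 8.

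In GMTMM iCMs the FFV array stood at least 2-fold above the FBS array for 4 members, where 1.87% of all genes did, and below it for 1, where 1.41% did. Of chains known from cartilage, Col2a1 had 8.65 in FFV and 6.49 in FBS, and Col11a1 had 9.54 in FFV and 7.17 in FBS. Col8a2 had 9.09 in FFV and 7.57 in FBS, and Col4a2 had 11.31 in FFV and 10.28 in FBS. Col9a3, a chain of cartilage type IX, was lower, with 6.46 in FFV and 7.57 in FBS. Other chains known from cartilage, Col9a1 (0.06), Col9a2 (-0.03), Col10a1 (0.03) and Col11a2 (-0.14), differed little between these arrays. The cartilage matrix gene Comp read 10.70 in GMTMM FFV and 6.45 in GMTMM FBS, and 6.19 to 6.83 in GMT iCMs, whereas the cartilage proteoglycan gene Acan was above background in 0 of 13 arrays.

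Whether the response to FFV differed between GMTMM and GMT iCMs was tested as an interaction, with 2 residual degrees of freedom. GMTMM iCMs gave 1 array per medium, so the residual spread came from the GMT arrays alone and holds none of the spread among GMTMM cultures. Limma called 7 of 34 members, where 9.63% of all genes were called. Of these 4 had a positive difference, a call made for 5.44% of all genes, and 3 a negative one, called for 4.18%. Col6a3 (0.85 ± 0.08, adjusted p = 0.00384), Col15a1 (0.85 ± 0.16, adjusted p = 0.0248), Col4a1 (0.57 ± 0.12, adjusted p = 0.0379) and Col23a1 (0.17 ± 0.04, adjusted p = 0.0456) had a more positive difference between FFV and FBS in GMTMM iCMs than in GMT iCMs. Col5a3 (-0.95 ± 0.20, adjusted p = 0.0387), Col9a3 (-0.90 ± 0.16, adjusted p = 0.0222) and Col7a1 (-0.89 ± 0.10, adjusted p = 0.00553) had a more negative one. Col6a3 had 7.67 in FFV and 6.75 in FBS in GMTMM iCMs, and 5.91 to 6.03 in the 6 GMT arrays, where it was close to the lowest value of any gene. Col7a1, the chain of the anchoring fibrils of skin, had 6.54 in FFV and 7.24 in FBS in GMTMM iCMs and 5.97 to 6.30 in GMT iCMs. Col23a1 was not above background in GMTMM FBS (5.77), so its difference rests on a value at background. Col15a1 had 9.0 in FFV and 8.06 in FBS in GMTMM iCMs, and its second probe 5.95 in FFV and 6.08 in FBS. The count was 0 with a floor, with the surround subtracted or with the authors' value table, and 2 without the mean-variance trend. Factors and array series differ together between these contexts and cannot be told apart. Starting cell and sort may differ too, as the labels do not name them for both.

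**Figure D4:**
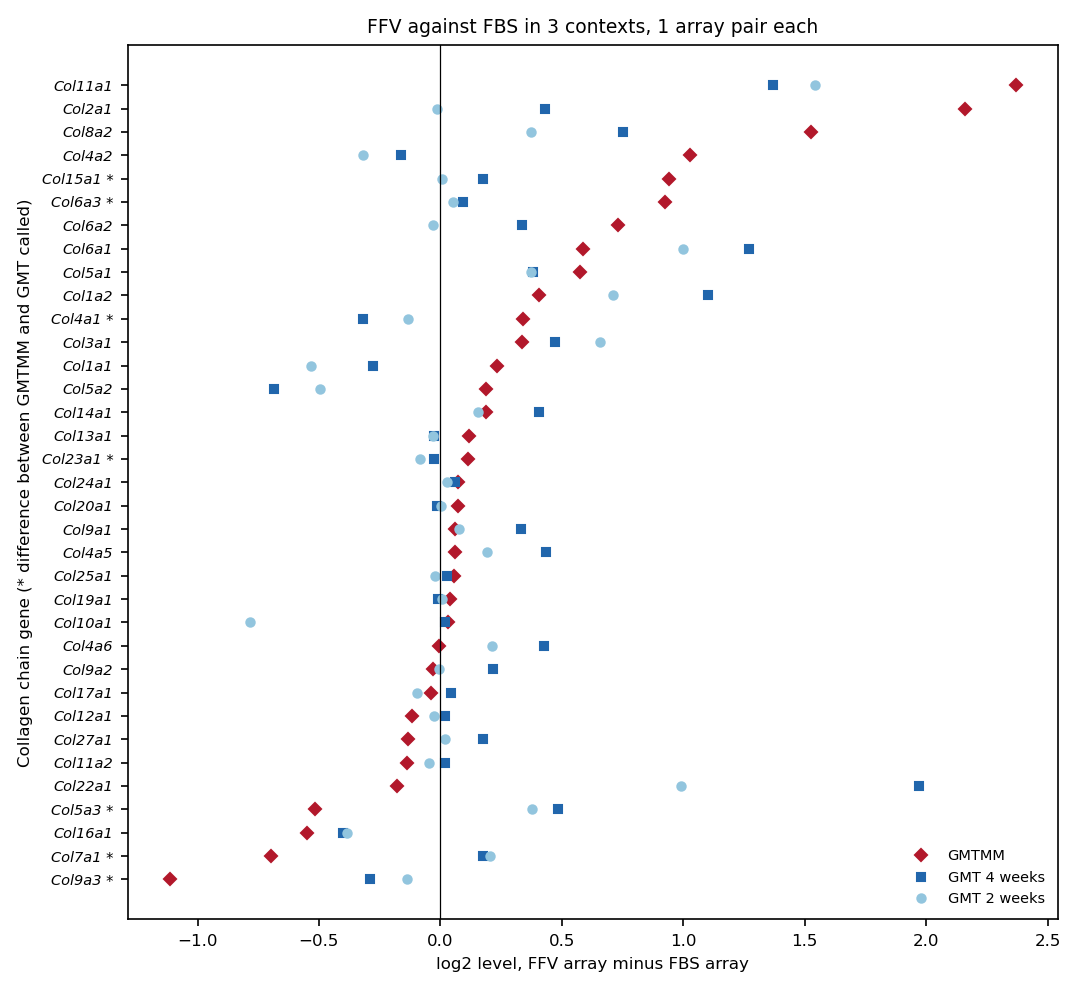
Log2 level in the FFV array minus the FBS array for each of the 35 collagen chain genes in GMTMM iCMs (diamonds) and in GMT iCMs at 4 weeks (squares) and 2 weeks (circles), 1 array pair each. Col11a1 is above 0 in all 3 contexts (2.37, 1.37 and 1.54), and asterisks mark the 7 genes whose difference between GMTMM and GMT was called.

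Among processing genes limma called a more positive difference in GMTMM than in GMT iCMs for 4 of 29, as for 5.44% of all genes. A more negative one was called for 0, as for 4.18% of all genes. The 4 included the prolyl 3-hydroxylation partners Crtap (1.53, adjusted p = 0.0118), P3h4 (1.45, adjusted p = 0.0255) and Ppib (1.44, adjusted p = 0.0124). Crtap had 10.52 in FFV and 9.41 in FBS in GMTMM iCMs, and 10.23 in FFV and 10.62 in FBS at 4 weeks and 10.33 in FFV and 10.79 in FBS at 2 weeks in GMT iCMs. The collagenase Mmp13 had the opposite sign, -3.94 (adjusted p = 0.000132), with 8.42 in FFV and 12.32 in FBS in GMTMM iCMs, and 5.80 to 5.98 in GMT iCMs. Of 6 cartilage markers tested, 4 were called, Comp with 3.91 (adjusted p = 0.00106). Macrophage markers had 1 of 8 called, Tyrobp with -2.80 (adjusted p = 0.0159).

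MT iCMs in FFV were compared with MEFs and with GMTMM iCMs in FFV, with 1 array a side and no test. Against MEFs 10 members were at least 2-fold lower, where 4.49% of all genes were, and 2 higher, where 4.79% were, with a median of -0.19. Col3a1 read 10.95 in MT iCMs and 14.32 in MEFs, 10.4-fold lower, and Col1a1 read 9.58, against 12.75, 9.03-fold lower. Col1a2 read 13.60, against 14.75, 2.22-fold lower, and Col14a1 read 6.45, against 9.06, 6.10-fold lower. The other 6 lower members were Col5a3 (3.27-fold), Col16a1 (3.26-fold), Col6a2 (2.92-fold), Col15a1 (2.76-fold), Col8a2 (2.65-fold) and Col5a1 (2.08-fold). Col5a1 and Col16a1 changed sign with the surround subtracted, to 1.24 and 0.68, and the call of Col5a3 ended (-0.58). Col15a1 ended with the mean of its probes (-0.89), and Col5a1 with median scaling (-0.97), the floor (-0.77) and the value table (-0.90).

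Col22a1 had its highest level in MT iCMs, 10.26, against 5.82 in MEFs, 21.7-fold higher. The gap was 0.58 with the surround subtracted and 7.42 in the authors' value table, so its direction held under both and its size did not. Col23a1, a transmembrane collagen, read 6.88 in MT iCMs and 5.87 in MEFs, 2.02-fold higher, a call that ended with the surround subtracted (0.61). Against GMTMM iCMs in FFV, which share the medium and the array series, 8 members were lower in MT iCMs, where 2.67% of all genes were, and 2 higher, where 2.54% were. Col5a3 read 6.61 in MT iCMs and 9.74 in GMTMM iCMs, 8.73-fold lower. Col15a1 read 6.15, against 9.0, 7.18-fold lower, but its second probe read 6.10 in MT iCMs and 5.95 in GMTMM iCMs. Col3a1 read 10.95, against 13.48, 5.77-fold lower. The others were Col16a1 (4.98-fold), Col2a1 (3.37-fold), Col6a2 (3.0-fold), Col6a1 (2.98-fold) and Col5a1 (2.45-fold). Col22a1 read 5.84 in GMTMM iCMs, so MT iCMs were 21.4-fold higher, and Col23a1 read 5.88, a gap of 2.00-fold. Both calls ended with the surround subtracted (0.61 for Col22a1 and 0.60 for Col23a1). Cardiomyocyte markers were at least 2-fold higher in MT iCMs for 6 of 8 genes against MEFs and for 2 of 8 against GMTMM iCMs, and macrophage markers were lower for 7 of 8 against MEFs.

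Between the hearts, 5 members were higher and 5 lower by at least 2-fold in the P1 heart, where 4.6% and 4.29% of all genes were. Col8a2 had 9.27 in the P1 heart and 7.44 in the E12 heart, 3.56-fold higher. Col6a2 had 8.61 in the P1 heart and 6.84 in the E12 heart, 3.4-fold higher. Col1a1 had 9.85 in the P1 heart and 8.30 in the E12 heart, 2.92-fold higher. Basement membrane Col4a2 (2.57-fold) and the minor fibrillar Col5a3 (2.12-fold) were higher too. Of chains known from cartilage, Col2a1 and Col9a1 were at least 2-fold lower in the P1 heart. Col9a2, Col9a3, Col10a1, Col11a1 and Col11a2 did not pass in the main setting. Col2a1 was at 6.28 in the P1 heart and 8.08 in the E12 heart, 3.47-fold lower. Col9a1 was at 6.42 in the P1 heart and 7.81 in the E12 heart, 2.62-fold lower. Col16a1 (2.26-fold) and Col13a1 (2.11-fold) were lower as well. With the surround subtracted the calls of Col9a1 (-0.65), Col13a1 (-0.53), Col16a1 (-0.20) and Col5a3 (0.53) ended, and with median scaling those of Col13a1 (-0.95) and Col5a3 (0.89). Other members passed with an offset of 16, the floor or the value table. Col9a2 (-1.54, -2.67 and -2.69) and Col11a1 (-1.16, -2.04 and -2.06) were lower under all of these, and Col4a1 (1.04, 1.36 and 1.33) higher. With the floor and the value table Col9a3 (-1.05 and -1.07) and Col4a5 (-1.09 and -1.12) were lower, and with the value table Col17a1 (-1.01). Col15a1 had 7.72 in the P1 heart and 9.56 in the E12 heart, 3.59-fold lower, but its second probe had 7.70 in the P1 heart and 6.0 in the E12 heart, the other way, so the probes disagree on its direction. The hearts lie in different array series. Endothelial markers were at least 2-fold higher in the P1 heart for 3 of 8 genes and macrophage markers for 2 of 8, and their part was not tested.

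Against MEFs, in the same array series, the P1 heart was at least 2-fold lower for 9 members, where 6.76% of all genes were, and higher for 0, where 6.1% were. Fibrillar chains made up 7 of the 9. Col11a1 had 5.93 in the P1 heart and 10.05 in MEFs, 17.3-fold lower. Col5a2 had 9.81 in the P1 heart and 12.88 in MEFs, 8.4-fold lower. Both type I chains were lower, Col1a2 8.13-fold with 11.73 in the P1 heart and 14.75 in MEFs, and Col1a1 7.51-fold with 9.85 in the P1 heart and 12.75 in MEFs. Col16a1 (4.32-fold), Col5a1 (3.5-fold), Col3a1 (2.82-fold), Col5a3 (2.68-fold) and Col6a1 (2.35-fold) were lower too. With the surround subtracted the calls of Col16a1 (-0.45), Col5a1 (-0.93) and Col5a3 (-0.22) ended. Of the processing genes 16 of 29 were at least 2-fold lower in the P1 heart and 0 higher, with a median of -1.13. Fibroblast markers were lower for 9 of 14 genes and macrophage markers for 7 of 8, while endothelial markers were higher for 7 of 8 and cardiomyocyte markers for 8 of 8. Their part in the collagen values was not tested.

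The fibroblasts differed from each other in 4 members. TTFs were higher for 1, Col6a1, with 12.52, against 10.99 in MEFs, 2.88-fold, where 2.6% of all genes were higher. They were lower for 3, where 2.8% were. Col14a1 had 6.45 in TTFs and 9.06 in MEFs, 6.09-fold lower. Col11a1 had 7.93 in TTFs and 10.05 in MEFs, 4.33-fold lower, and Col1a1 had 11.51 in TTFs and 12.75 in MEFs, 2.37-fold lower, a call that ended with the floor (-0.99). Col3a1 was within 2-fold, with 14.18 in TTFs and 14.32 in MEFs, as was Col1a2, with 14.32 in TTFs and 14.75 in MEFs. Macrophage markers were at least 2-fold lower in TTFs for 5 of 8 genes, with summed levels of 12.06 in TTFs and 13.55 in MEFs, and their part in the collagen values was not tested.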

How the data were processed

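RNA of 13 samples was hybridised to single-colour arrays, and the deposited scanner files give, per the file headers, the intensity of each spot at 635 nm. The authors' value table is a rescaling of the deposited spot medians to a median of 25 per array, found by comparing it with the scanner values, and served as an alternative. Spot medians were corrected with normexp (offset 50), log2-transformed and quantile-normalised with limma 3.58.1 in R 4.3.3. A probe was above background where its signal exceeded the mean of 2736 blank spots plus 2 SD. Of 23473 probes, 16631 had 1 gene symbol and 6842 had none. Tables were made with Python 3.11.15 and pandas 2.3.3, and figures with matplotlib 3.10.9.

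With 1 array per group, comparisons between groups have no test: a gene was counted where it differed at least 2-fold the same way in every array pair and its brighter side was above background. Medium was fitted with limma (mean-variance trend, Benjamini-Hochberg adjustment, threshold 0.05) on 8 arrays with context as a covariate, leaving 3 residual degrees of freedom, over genes above background in at least 2 arrays. Time was fitted on the 6 GMT arrays. The precision is limited by the number of arrays. Fits were tested on simulated data. Every member could be named, and those given in full were the 12 with the highest mean level and every member past a threshold. Other genes were named where they had the largest differences in their list. The members and lists were chosen with earlier results of these data known. Promoters are RefSeq's.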

Additional observations from a re-analysis of the deposited data

Results flagged for a closer look

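For 7 members limma's test of the interaction called a difference between GMTMM and GMT iCMs in FFV against FBS, over 15245 genes of which 9.63% were called. The count was 0 with the floor, the surround subtracted or the value table. The log2 difference in GMTMM iCMs minus that in GMT iCMs was 0.85 for Col6a3, 0.85 for Col15a1, 0.57 for Col4a1 and 0.17 for Col23a1, and -0.95 for Col5a3, -0.90 for Col9a3 and -0.89 for Col7a1. For Col6a3 the FFV array stood above the FBS array by 0.92 in GMTMM iCMs, 0.09 in GMT iCMs at 4 weeks and 0.05 at 2 weeks. Col5a3 moved in opposite directions, with -0.52 in GMTMM iCMs, 0.48 at 4 weeks and 0.38 at 2 weeks, as did Col7a1 with -0.70, 0.18 and 0.21. Col2a1 lay just outside the threshold, with 1.95 (limma adjusted p = 0.0501). The GMTMM side is 1 pair of arrays, so the residual spread is that of GMT arrays alone. With 1 array per group, no group could be searched for a sample far from the others.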

How the results depend on the processing

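No paired analysis was possible by replicate number because each group had 1 array, whereas context was already a term of the medium fits and medium of the time fit. Of the counts of members, 110 stayed within 1.5 times the main count under an alternative and 25 did not, and the cause was not tested. GMT iCMs against the E12 heart had 3 members, but 6 with an offset of 16, 5 with a floor on blank-subtracted signal or with the authors' value table, and 1 with the local surround subtracted. Against the P1 heart the count of 4 was 2 with median scaling and 7 with an offset of 16, the floor or the value table. GMTMM iCMs against TTFs had 4, and 1 with the surround subtracted. MT against GMTMM iCMs had 10, and 17 with the floor or the value table. P1 against E12 had 10, and 6 with the surround subtracted and 16 with the value table. TTFs against MEFs had 4, and 8 with the surround subtracted and 7 with the value table. The interaction had 7, and 0 with the floor, the surround subtracted or the value table, and 2 without the mean-variance trend. Without the GMTMM arrays FFV against FBS called 2 and SF against FBS 6, in place of 0, and without the SF arrays time called 1. Leaving out 1 array at a time, an alternative chosen after seeing the data, gave 13 to 14 members for GMT iCMs against MEFs, 3 to 4 against the E12 heart, 4 to 7 against the P1 heart (7 without FFV at 4 weeks) and 8 for GMTMM iCMs against TTFs without either array. With the surround subtracted the sign turned for Col16a1 in GMT iCMs against MEFs (0.092), Col5a1 (1.24) and Col16a1 (0.68) in MT iCMs against MEFs, Col3a1 in FFV against SF (-0.030) and Col8a2 in 4 against 2 weeks (-0.094). Spot and surround signals correlated at 0.88 to 0.96 over the arrays, so this setting may also remove spot signal, which was not tested. Signal over background limits Col9a2, Col19a1, Col23a1 and Col25a1, which were not above it in every array.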
